A study of Mus musculus with 2 samples.

Results

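The genes described here move acid, chloride, bicarbonate and related anions across cell membranes. They are the sodium/hydrogen exchangers (Slc9a), the anion exchangers and sulfate transporters (Slc26a), the bicarbonate transporters (Slc4a), the cation-chloride cotransporters (Slc12a), the sodium-coupled sulfate and dicarboxylate transporters (Slc13a), the bestrophin anion channels (Best) and the chloride channel gene Cftr. They were picked by gene symbol alone, and 52 of the 33793 transcript clusters of the main category on the array carry such a symbol, each a different gene. The symbol rule also takes in genes that are not transporters. Slc9a3r1 and Slc9a3r2 encode scaffold proteins of the exchanger NHE3, Slc4a1ap encodes an adaptor protein, and Slc13a2os is an antisense RNA.

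Expression was measured on 2 Mouse Gene 2.0 ST arrays, 1 for colon of C3 KO mice on the FVB background and 1 for colon of WT FVB mice, all 16 weeks old and untreated. The mice came from crosses of heterozygous C3 parents, and the C3 KO mice were studied as a model of constipation. The tissue label reads distal colon, whereas RNA was extracted from mid colon according to the protocol. How many mice stand behind each array, their sex and which part of C3 was deleted are not given in the sources used here. The arrays themselves differed in sex-linked genes, which were looked up after their values were known. Xist, the RNA of the inactive X chromosome in females, was at 3.81, below background, on the C3 KO array and 10.35 on the WT array. The Y-linked genes Ddx3y, Eif2s3y, Kdm5d and Uty were at 7.68 to 8.40 on the C3 KO array and 2.97 to 5.18 on the WT array, where 3 of the 4 lay below background. The C3 KO array thus had the pattern of male RNA and the WT array that of female RNA, so genotype and sex cannot be told apart in any difference given here. Each group has 1 array, which leaves the spread among mice unknown, and all differences are therefore given without a test.

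In the colon, the surface epithelium takes up sodium chloride by pairing an apical sodium/hydrogen exchanger with an apical chloride/bicarbonate exchanger, and water follows the salt. Slc9a3, which encodes NHE3, and Slc26a3, which encodes the exchanger DRA, are the best known pair. Secretion runs the other way: NKCC1, the product of Slc12a2, loads the cell with chloride across the basolateral membrane, and CFTR lets it out on the luminal side. Bicarbonate for the exchangers is made by carbonic anhydrases or enters through Slc4a proteins.

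A level is a log2 value after normalization by RMA, so a difference of 1 is a 2-fold change, and differences are C3 KO minus WT. The median level of the main clusters was 5.46 on the C3 KO array and 5.51 on the WT array. The 23 antigenomic probe sets, which match no mouse sequence and serve as background, had a median of 3.99 on the C3 KO array and 4.20 on the WT array. C3 itself had a level of 6.80 on the C3 KO array and 8.15 on the WT array. Genes of the exocrine pancreas set the arrays apart: all 18 clusters of the 15 acinar marker genes were at least 1.5-fold lower on the C3 KO array (levels of 3.36 to 9.35, median 5.59) than on the WT array (5.29 to 13.36, median 12.67). The pan-epithelial and smooth muscle markers were alike on both arrays, with 0 of 8 and 0 of 9 clusters past 1.5-fold. Levels of different probe sets are signals that also depend on the probes, so they order signals and not amounts of RNA.

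Most exchanger genes differed by less than 1.5-fold between the arrays, and the exceptions were Slc9a3 and Slc13a1. Of the 52 genes, 2 were at least 1.5-fold lower on the C3 KO array (3.85%) and 0 were higher. Over all main clusters, 3.82% were at least 1.5-fold lower and 3.66% at least 1.5-fold higher, so the share of lower members was near that of the array as a whole. Both Slc9a3 and Slc13a1 were also at least 2-fold lower, against 0.678% of main clusters, and 0 members were at least 2-fold higher, against 0.669%. The median difference of the 52 genes was -0.09, beside 0 for all main clusters. A negative difference was found for 32 of the 52 genes (61.5%) and for 48.4% of main clusters. For 30 of the 52 genes the difference was smaller than 0.25 in either direction. Centring each array on its own median moved the array-wide count to 1522 clusters higher and 1012 lower, against 1237 higher and 1292 lower as deposited.

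**Figure D1:**
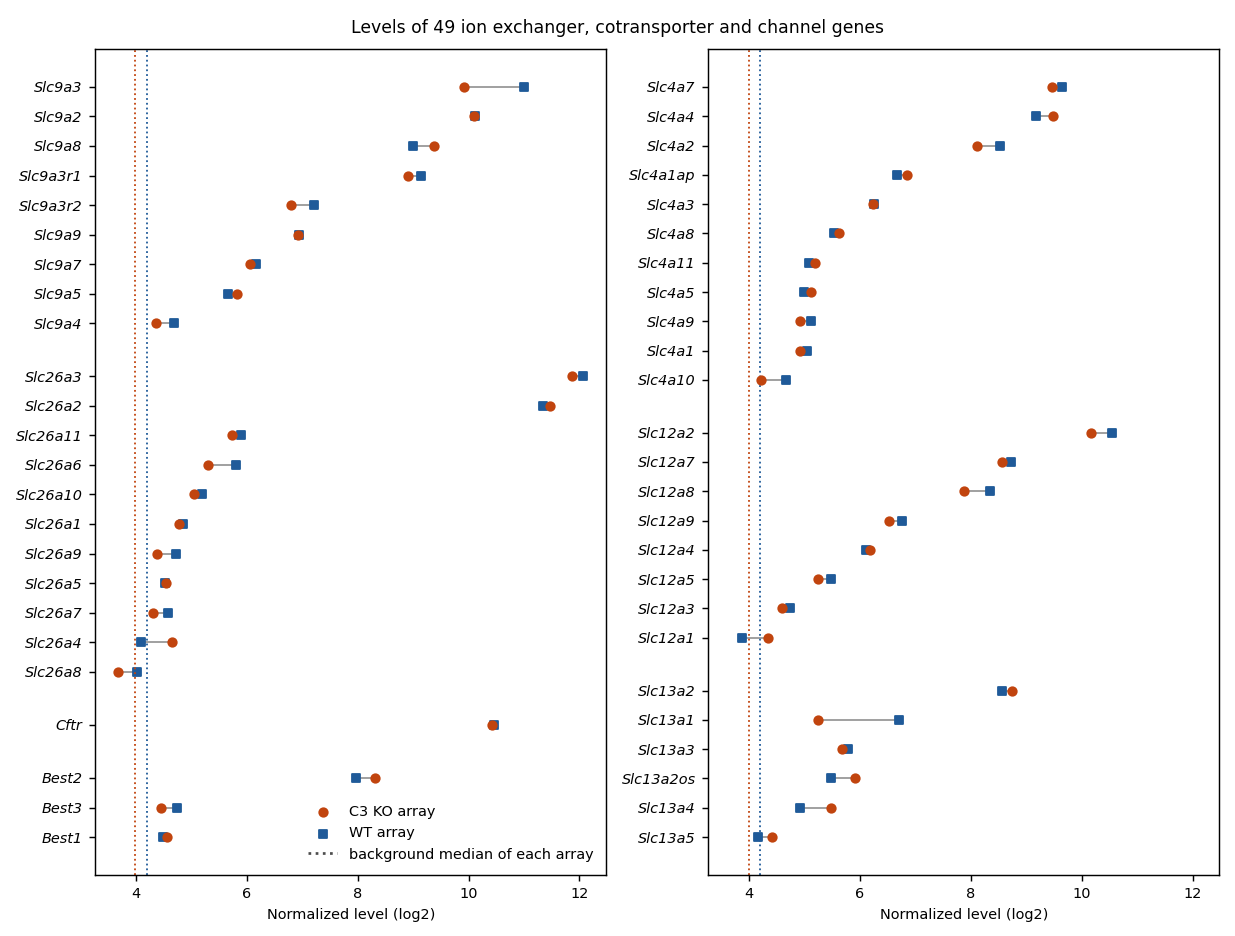
Normalized log2 level of 49 of the 52 genes on the C3 KO array (circles) and the WT array (squares), by subfamily and ordered by mean level, with the antigenomic background median of each array as a dotted line. The pairs of Slc9a3 (9.92 in C3 KO and 11.00 in WT) and Slc13a1 (5.23 in C3 KO and 6.70 in WT) are the farthest apart, and most other pairs nearly touch.

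Slc9a3 had one of the most negative differences among clusters of similar signal. NHE3, its product, is the main sodium/hydrogen exchanger of the intestinal brush border, and mice and people who lack it have diarrhea. Its level was 9.92 on the C3 KO array and 11.00 on the WT array, a log2 difference of -1.08 or 2.11-fold lower. The study had named Slc9a3 from these same arrays, so its direction, size and ranks are descriptions and not independent evidence. The cluster holds 25 probes of the type that matches 1 place in the genome and lies on the plus strand of chromosome 13, from 74121515 to 74166064 (GRCm38). It was the brightest of the 11 Slc9a clusters by mean level, at 10.46.

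At that level few clusters differed. Where the mean level reached 10, the array holds 686 main clusters, of which 8 (1.17%) were lower by 1.5-fold and 6 (0.875%) were higher, and the middle 95% of their differences ran from -0.39 to 0.41. Slc9a3 ranked 4 from the lowest among these 686 clusters. The 3 clusters with a more negative difference were Cela1 of the exocrine pancreas, the goblet cell gene Retnlb and Car1, the carbonic anhydrase of the colonic surface. Among the 471 clusters within 0.5 log2 of the mean level of Slc9a3, 1 had a more negative difference. Over all 33793 clusters, many of them dim, 188 had a more negative difference.

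The 10 member genes nearest to Slc9a3 in mean level stayed within 1.5-fold. They included Cftr, Slc12a2, Slc9a2, Slc4a7, Slc26a2, Slc4a4, Slc9a8, Slc9a3r1 and Slc26a3, the brightest at a mean level of 11.96. Their differences ran from -0.38 for Slc12a2 to 0.38 for Slc9a8, with a median of -0.06, and 0 of 10 passed 1.5-fold. Cftr, the nearest of all in signal, was at 10.41 on the C3 KO array and 10.45 on the WT array.

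**Figure D2:**
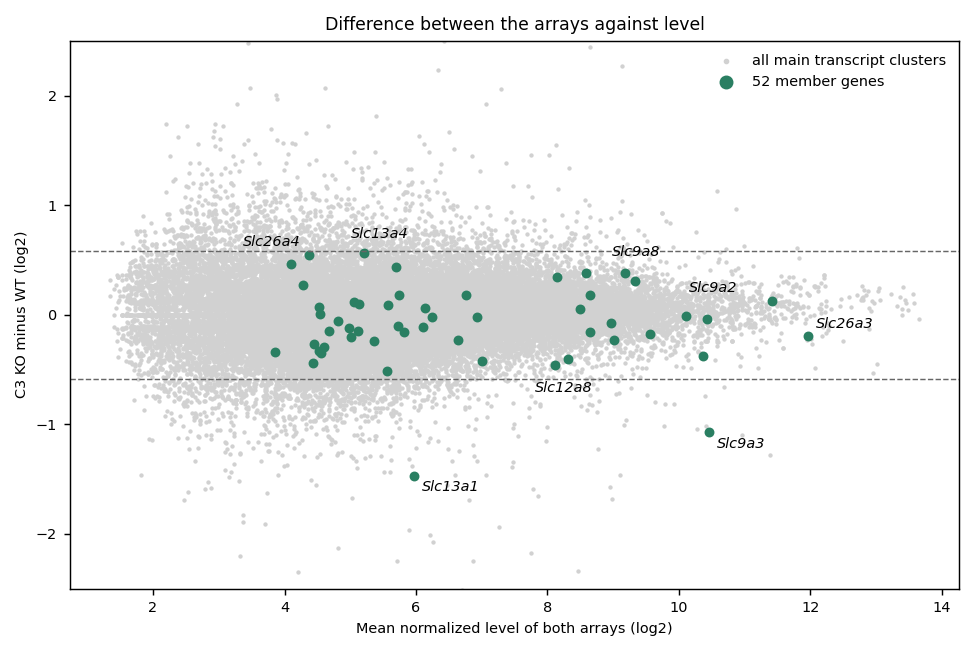
Log2 difference (C3 KO minus WT) against the mean log2 level of both arrays for all main transcript clusters (grey) and the 52 member genes (green), with dashed lines at 1.5-fold and clusters beyond 2.5 left out of the frame. The grey cloud narrows at high levels, where Slc9a3 (-1.08) stands below it, while Slc9a2, Slc9a8 and Slc26a3 lie within 1.5-fold.

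A promoter window each of Slc9a3 and Slc26a3, partners in sodium chloride uptake, differed in base composition. Whether this bears on the differences between the arrays was not tested. The 300 bases shown, from RefSeq on GRCm38.p6, run from 250 bases before to 50 bases after an annotated start site. For Slc9a3 they are chr13:74121163-74121462 and for Slc26a3 chr12:31437969-31438268, both on the plus strand. The Slc26a3 start site, at 31438219, lies inside the array cluster of that gene, which runs from 31390871 to 31473917. The window thus describes 1 start site and not the whole gene. Capitals mark the GC box (GGGCGG) in Slc9a3 and the TATA box (TATAAA) and the partial site of the factor HNF1 (GTTAAT) in Slc26a3, on either strand.
Slc9a3: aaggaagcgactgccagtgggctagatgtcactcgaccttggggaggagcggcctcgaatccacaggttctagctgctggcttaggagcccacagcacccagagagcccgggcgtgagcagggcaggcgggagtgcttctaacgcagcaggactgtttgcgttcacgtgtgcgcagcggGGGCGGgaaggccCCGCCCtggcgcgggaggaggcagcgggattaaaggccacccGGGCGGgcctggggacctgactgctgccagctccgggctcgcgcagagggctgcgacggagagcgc
Slc26a3: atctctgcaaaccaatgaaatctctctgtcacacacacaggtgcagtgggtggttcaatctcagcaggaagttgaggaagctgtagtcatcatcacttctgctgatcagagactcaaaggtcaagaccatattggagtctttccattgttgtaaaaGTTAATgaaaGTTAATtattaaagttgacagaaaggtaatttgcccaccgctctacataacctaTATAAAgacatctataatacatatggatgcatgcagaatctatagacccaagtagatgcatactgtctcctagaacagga

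The Slc9a3 window holds 3 GC boxes and 68.7% G and C, and the Slc26a3 window holds 0 GC boxes, 1 TATA box, 2 HNF1 partial sites and 39.3% G and C, beside a median of 52.7% for all promoters. Of 32851 promoter windows of this length, 35.7% hold a GC box, 13.6% a TATA box and 7.1% an HNF1 partial site. Promoter windows were found for 37 of the 52 genes (47 windows, since some genes have several start sites), and 26 of these 47 hold a GC box (55.3%), 10 a TATA box and 3 an HNF1 partial site. Sites of the gut factors of the GATA family, spelled GATAAG, were also searched for. They are in neither window and in 7.44% of all windows. The same holds for the site TTTATG of the factor CDX, which 11.9% of all windows hold. These matches describe letters in a window and not binding.

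The other sodium/hydrogen exchangers did not follow Slc9a3. Of the 11 Slc9a clusters, 1 was at least 1.5-fold lower and 0 were higher, with a median difference of -0.08. Slc9a2, which encodes NHE2, a second exchanger of the apical membrane, was at 10.10 on the C3 KO array and 10.11 on the WT array. Slc9a8, which encodes NHE8 of the apical and Golgi membranes, was at 9.37 on the C3 KO array and 9.00 on the WT array, the most positive difference of the subfamily (0.38). The difference of Slc9a3 was thus 1.06 log2 units more negative than that of Slc9a2 and 1.45 more negative than that of Slc9a8.

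Slc9a4, known from the stomach, was dim at 4.36 on the C3 KO array and 4.69 on the WT array. Slc9a5, an exchanger known mainly from the brain, was at 5.83 on the C3 KO array and 5.65 on the WT array. Among the exchangers of endosomes and the Golgi, Slc9a7 was at 6.05 on the C3 KO array and 6.17 on the WT array, and Slc9a9 at 6.92 on the C3 KO array and 6.94 on the WT array. Of the scaffolds that hold NHE3 at the brush border, Slc9a3r1 (NHERF1) was at 8.90 on the C3 KO array and 9.14 on the WT array. Slc9a3r2 (NHERF2) was at 6.79 on the C3 KO array and 7.22 on the WT array, a difference of -0.42, the most negative of the subfamily after Slc9a3. Both scaffolds stayed within 1.5-fold.

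The anion exchangers of the Slc26a family held the brightest clusters of the whole group, and 0 of 11 passed 1.5-fold in either direction. Slc26a3, the chloride/bicarbonate exchanger of the colonic surface, was at 11.87 on the C3 KO array and 12.06 on the WT array (difference -0.20). Slc26a2, a sulfate transporter, was at 11.47 on the C3 KO array and 11.35 on the WT array. Of the dimmer members, Slc26a6, an exchanger of chloride for bicarbonate and oxalate, was at 5.30 on the C3 KO array and 5.81 on the WT array, or 1.43-fold lower. Slc26a4, which encodes pendrin, was 1.46-fold higher, with 4.64 on the C3 KO array and 4.09, below the background median, on the WT array. Slc26a8, a gene known from testis, lay below the background median on both arrays. Slc26a11, the next in signal after Slc26a2, was at 5.73 on the C3 KO array and 5.89 on the WT array. The remaining 5 members, Slc26a1, Slc26a5, Slc26a7, Slc26a9 and Slc26a10, had differences between -0.35 and 0.01. The median of the subfamily was -0.16, and 8 of 11 differences were negative. Slc26a3 and Slc26a4 are neighbours on chromosome 12, on opposite strands and 45.9 kb apart, and their differences had opposite signs.

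**Figure D3:**
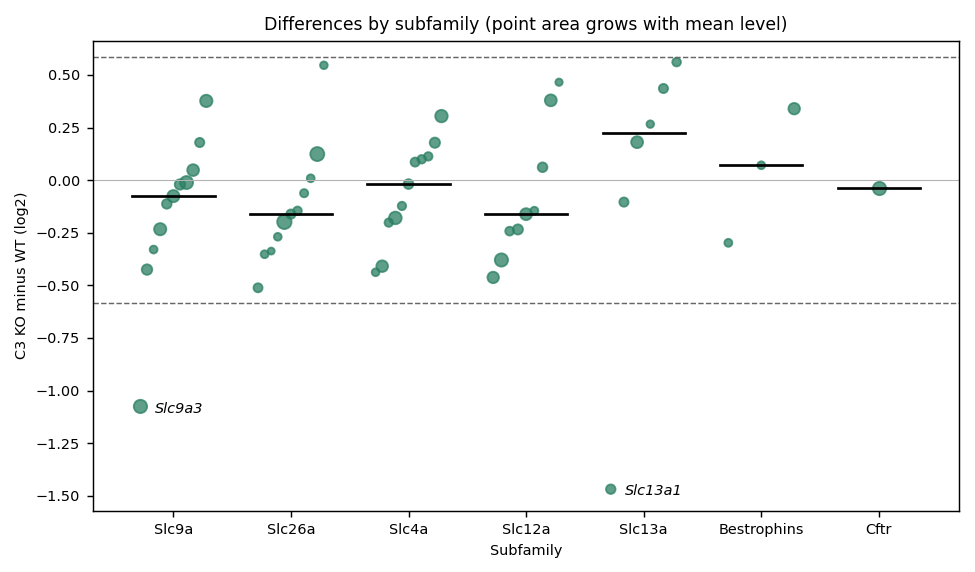
Log2 difference (C3 KO minus WT) of each member by subfamily, with a line at the median, dashed lines at 1.5-fold and the area of a point growing with its mean level. Slc9a3 and Slc13a1 lie below the lower dashed line, and 0 points lie above the upper one.

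The Slc4a clusters, 10 for transporters and 1 for the adaptor Slc4a1ap, were all within 1.5-fold. The brightest were Slc4a7, which encodes the sodium-bicarbonate cotransporter NBCn1, at 9.47 on the C3 KO array and 9.65 on the WT array, and Slc4a4. Slc4a4, which encodes the electrogenic cotransporter NBCe1, was at 9.48 on the C3 KO array and 9.18 on the WT array. Slc4a2, which encodes AE2, the chloride/bicarbonate exchanger of the basolateral side, was at 8.11 on the C3 KO array and 8.52 on the WT array, or 1.33-fold lower. These 3 differences had different signs: 0.30 for Slc4a4, -0.18 for Slc4a7 and -0.41 for Slc4a2. The most negative of the subfamily was -0.44 for Slc4a10, at 4.22 on the C3 KO array and 4.66 on the WT array, both near background. The other 7 members had differences between -0.20 and 0.18, among them Slc4a1, the exchanger of red blood cells, at 4.92 on the C3 KO array and 5.04 on the WT array. The median of the subfamily was -0.02.

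The cation-chloride cotransporters also stayed within 1.5-fold, with 0 of 9 past it and a median of -0.16. Slc12a2, which encodes the secretory cotransporter NKCC1, was at 10.17 on the C3 KO array and 10.55 on the WT array, or 1.30-fold lower. Its difference of -0.38 lay just inside the middle 95% of clusters at a mean level of 10 or more. Of the potassium-chloride cotransporters, Slc12a7 (KCC4) was at 8.57 on the C3 KO array and 8.73 on the WT array. Slc12a4 (KCC1) had a difference of 0.06, and Slc12a5 (KCC2), a neuronal gene, of -0.24. Slc12a8 was at 7.88 on the C3 KO array and 8.34 on the WT array, a difference of -0.46. That lay just outside the middle 95% of clusters at levels of 8 to 10 (-0.44 to 0.50). With Slc9a3 and Slc13a1 it was 1 of 3 members among the 52 outside the middle 95% for their own range of levels. By definition 95% of main clusters lie inside, so the share of members outside was near that of the array as a whole. The cotransporters of the kidney tubule were dim, with Slc12a3 (NCC) at 4.60 on the C3 KO array and 4.74 on the WT array. Slc12a1 (NKCC2) was at 4.34 on the C3 KO array and 3.87, below the background median, on the WT array. Slc12a9 had a difference of -0.23. Slc12a7 is the member nearest to Slc9a3 on the genome, 304.8 kb away on chromosome 13, and its difference was -0.16.

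Slc13a1 had the most negative difference of all 52 genes. It encodes NaS1, a sodium-coupled sulfate transporter of the kidney and small intestine, and it had a level of 5.23 on the C3 KO array and 6.70 on the WT array, 2.77-fold lower. Its cluster of 27 probes lies on the minus strand of chromosome 6, from 24088283 to 24168092. At mean levels of 4 to 6, 4.82% of main clusters were at least 1.5-fold lower and 3.58% higher, and the middle 95% of differences ran from -0.69 to 0.66. Slc13a4, which encodes the related sulfate transporter NaS2, had the most positive difference of the 52 genes, 1.48-fold higher at 5.48 on the C3 KO array and 4.92 on the WT array. The count of higher members rests on such values: with the arrays centred by the median or by loess on level, 2 members, Slc13a4 (0.61 and 0.62) and Slc26a4 (0.59 and 0.61), were past the threshold of 0.58.

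The dicarboxylate transporters of the Slc13a family did not follow Slc13a1. Slc13a2, which encodes NaDC1, a transporter of succinate and citrate, was the brightest of the subfamily at 8.74 on the C3 KO array and 8.56 on the WT array. Slc13a3 (NaDC3) was at 5.67 on the C3 KO array and 5.77 on the WT array. Slc13a5, a citrate transporter, was at 4.42 on the C3 KO array and 4.15, below the background median, on the WT array. The antisense RNA Slc13a2os, on the strand opposite to Slc13a2 and overlapping it on chromosome 11, was at 5.91 on the C3 KO array and 5.47 on the WT array. The median of all 6 Slc13a clusters, which include the sulfate transporters and the antisense RNA, was 0.22. At 1.5-fold, 1 of the 6, Slc13a1, was lower and 0 were higher.

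The anion channels of secretion were alike on both arrays. Cftr, which lies on chromosome 6 from 18170687 to 18322770, had a difference of -0.04. Best2, a bestrophin of colonic goblet cells with a role in bicarbonate secretion, was at 8.32 on the C3 KO array and 7.98 on the WT array, or 1.27-fold higher. Best1, a gene of the retinal pigment epithelium, was at 4.56 on the C3 KO array and 4.49 on the WT array, and Best3 was at 4.45 on the C3 KO array and 4.74 on the WT array.

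Genes that work with the exchangers were mostly alike too, but Car1 and Atp12a were lower together with Slc9a3. Of 60 clusters for 59 such partner genes, 5 were at least 1.5-fold lower and 1 was higher (3.82% and 3.66% over all main clusters), with a median difference of -0.06. The share of lower partner clusters was thus above that of the array as a whole, on a small count. The partner genes were chosen with earlier results of these data known, so this share is a description and not evidence of an excess. Car1, a carbonic anhydrase that supplies protons and bicarbonate, was at 10.40 on the C3 KO array and 11.51 on the WT array, or 2.15-fold lower. Atp12a, the colonic potassium-transporting proton pump, was at 9.26 on the C3 KO array and 10.28 on the WT array, or 2.02-fold lower. The other 3 lower clusters were dim. Atp4b did not reach 1.5-fold once the arrays were centred by the median (-0.55) or by loess (-0.54), and the Wnk3 cluster did not with the median (-0.56). Prkg2, the cGMP-dependent kinase that acts on NHE3 and CFTR, was at 4.93 on the C3 KO array and 5.70 on the WT array. Atp4b, a subunit of the gastric proton pump, was at 4.93 on the C3 KO array and 5.53 on the WT array. The lower cluster of the kinase gene Wnk3 (18 probes, difference -0.60) lay below background on both arrays. So did the other Wnk3 cluster, which has 41 probes and a difference of -0.08. The 1 higher gene was Clca4b, at 4.80 on the C3 KO array and 3.68, below background, on the WT array.

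By list, 1 of 13 genes that hold or regulate NHE3, 1 of 8 carbonic anhydrases, 2 of 8 pump genes and 1 of 10 clusters of the WNK kinase pathway were lower. None was past 1.5-fold among 3 genes of the guanylin pathway and 6 of the sodium channel, and among 12 secretory channel and receptor genes the 1 past it was Clca4b. Of the 2 brightest genes in each of these lists, all but Car1 stayed within 1.5-fold. Car2, a cytosolic carbonic anhydrase, was at 10.96 on the C3 KO array and 10.85 on the WT array. Atp1b1, the beta subunit of the sodium pump, had a difference of -0.07. Guca2a and Gucy2c, the hormone guanylin and its receptor, which inhibit NHE3 through cGMP, had differences of 0.02 and -0.17. Ezr and Myo6, which tether and move proteins of the brush border, had differences of -0.11 and 0.17. Nedd4l and Hsd11b2, which act on the epithelial sodium channel and on steroid access to its regulator, had differences of 0.23 and 0.04. Clca1, a secreted goblet cell protein, and Ano1, a calcium-activated chloride channel, had differences of -0.13 and 0.50. Wnk1 and Cul3, of the pathway that phosphorylates the Slc12a cotransporters, had differences of 0.04 and -0.01.

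**Figure D4:**
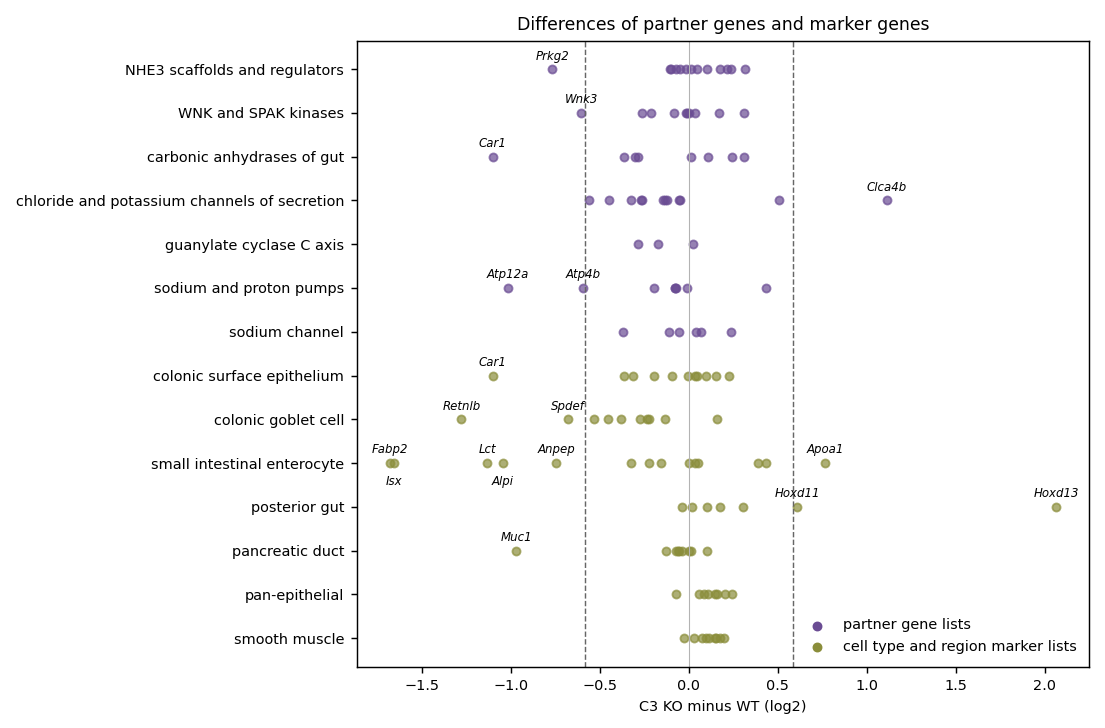
Log2 difference (C3 KO minus WT) of each transcript cluster in the partner lists (purple) and in 7 of the marker lists (olive), with dashed lines at 1.5-fold and the names of the genes past it. In the partner lists Car1 (-1.10), Atp12a (-1.02), Prkg2, Atp4b and a Wnk3 cluster lie beyond the lower line, and Clca4b beyond the upper one. In the small intestinal enterocyte list Fabp2, Isx, Lct, Alpi and Anpep lie beyond the lower line, and Apoa1 beyond the upper one. Hoxd13 and Hoxd11 of the posterior gut list also lie beyond the upper line.

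Marker genes of gut cells and regions gave values that stand beside those of Slc9a3 and Slc13a1. Over all main clusters, 3.82% were at least 1.5-fold lower and 3.66% at least 1.5-fold higher. In lists as short as these, 1 gene past 1.5-fold tells little. Of 11 colonic surface epithelium markers, 1, Car1, was at least 1.5-fold lower and 0 were higher (median difference -0.0022). Slc26a3 belongs to this list as well as to the exchangers. Of 14 markers of small intestinal enterocytes, which also use Slc9a3 and Slc13a1, 5 were lower and 1, Apoa1, was higher. The 14 levels ran from 3.64 to 9.32 on the C3 KO array (median 6.42) and from 3.59 to 9.82 on the WT array (median 6.28). The lower ones were Fabp2, at 8.14 on the C3 KO array and 9.82 on the WT array, Isx, Lct, Alpi and Anpep. The defining marker Sis, the sucrase-isomaltase, lay below background on both arrays. Of 7 measured markers of the posterior gut, 2 were higher, Hoxd13, at 8.33 on the C3 KO array and 6.27 on the WT array, and Hoxd11, and 0 were lower. Of 9 pancreatic duct markers, which include Cftr, 1 was lower, Muc1, and of 11 stomach markers 4 were lower, with Tff2 at 5.45 on the C3 KO array and 8.89 on the WT array. Of 10 goblet cell clusters 2 were lower, Retnlb and Spdef, and the median difference of the list was -0.33. Of 12 clusters of enteric neurons and glia 1 was lower, S100b, with a list median of 0.11. In both lists 0 were higher. The part of tissue region and of pancreatic or stomach RNA in the differences of the exchanger genes was not tested. In a whole-tissue sample, fewer cells of a type and less RNA per cell cannot be told apart.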

How the data were processed

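Total RNA of C3 KO and WT colon was labeled and hybridized to 1 Mouse Gene 2.0 ST array each. The authors ran RMA at the gene level with Affymetrix Power Tools and deposited the log2 values, which were used as given. RMA forces both arrays to nearly the same distribution, so shifts shared by most genes are removed. Tables of the authors' folds and of their KEGG and GO enrichment were not used. With 2 arrays, the number of arrays limits the precision.

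Members were the main clusters matching the symbol rule. Differences are C3 KO minus WT, with thresholds of 1.5-fold (0.58 log2) and 2-fold. The members and gene lists were chosen with earlier results of these data known. Every member could be named, and of the partner genes those past 1.5-fold and the 2 brightest of each list, but some of these genes are not reported here and enter only the counts, ranges and medians. Coordinates are those of the deposited annotation, whose descriptions name GRCm38 where they name a build, and 52 of 52 member clusters overlapped the GRCm38.p6 gene of that symbol. Alternatives were centring by the median or loess (fraction 0.3), the series table, minimum mean levels of 4 and 6, detection above background, cross-hybridization type 1, and 1 value per symbol as mean or brightest cluster. The calculation was tested on simulated data. Python 3.11.15, pandas 2.3.3, numpy 2.4.6 and statsmodels 0.14.6 were used.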

Additional observations from a re-analysis of the deposited data

How the results depend on the processing

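The difference of Slc9a3 was -1.03 with median centring and -1.12 with loess centring, both past 2-fold. The other 7 of the 9 alternatives could not move it, since it has 1 bright cluster of type 1 and the series table repeats the values. Under both median and loess centring, 2 members were at least 1.5-fold higher, against 0 without centring. Median centring left 3 lower partner clusters in place of 5. Loess centring, a minimum mean level of 4, detection above background and the mean per symbol each left 4. A minimum mean level of 6 kept 25 of the 52 members and left out Slc13a1 (5.97), so that 1 member was at least 1.5-fold lower and 1 at least 2-fold lower. With that minimum, 0 partner clusters were higher and 2 were lower, the median of the Slc26a members was -0.037 and that of the bestrophins, then Best2 alone, was 0.34. The series table held the same values. No paired analysis was possible because each group has 1 array, and leaving out an array leaves no comparison. Dim genes near the background medians have folds whose size is not exact.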
